A study of Mus musculus with 16 samples.

Results

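The Hox genes were examined as a family in mouse embryonic fibroblasts (MEFs), primary cultures of connective tissue cells from embryos, with and without SIMPL. Of 38 listed Hox genes, 37 had a probe set of their own on the array and were measured, among 19938 genes in all. They were 10 genes of the HoxA cluster, 9 of HoxB, 9 of HoxC and 9 of HoxD. They were listed by name as a family, with earlier results of these data known. Hoxb8 was listed as well, but its probe set is shared with Hoxb7, so it was not tested.

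SIMPL, encoded by Irak1bp1, is a co-activator of NF-κB, and the study asked which genes respond to tumour necrosis factor α (TNFα) through it. Total RNA was hybridised to 16 arrays (Affymetrix Mouse Gene 1.0 ST) in 4 groups of 4: untreated littermate (WT) MEFs, TNFα treated littermate MEFs, untreated SIMPL-/- (KO) MEFs and TNFα treated SIMPL-/- MEFs. All cells had the mixed background C57Bl/6 x 129Sv, and the treated cells received recombinant human TNFα (10 ng/ml) during 45 min by the labels of the arrays, while the array methods name a longer time. By those methods MEFs of each genotype were made 4 independent times, each time from 1 embryo, and nothing ties a treated array to the untreated array of the same embryo, so that p-values measure the spread between these arrays.

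Hox genes encode homeodomain transcription factors that give cells along the body axis their positional identity. Within a cluster they lie in the order in which they are used, from anterior (head end) to posterior (tail end and tips of the limbs), and genes at the same place in different clusters form a paralog group. Fibroblasts keep a Hox pattern that reflects the part of the body they came from, also after growth in culture. HoxA and HoxD genes of the posterior groups pattern the limbs from shoulder to digit and the genital tubercle, while HoxB and HoxC genes are used chiefly along the trunk. In the mouse, the clusters lie on chromosome 6 (HoxA), chromosome 11 (HoxB), chromosome 15 (HoxC) and chromosome 2 (HoxD). Paralog groups 1 to 3 are called anterior here, 4 to 8 central and 9 to 13 posterior, which gave 7, 14 and 16 measured genes.

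All values are log2 RMA values, a normalized array brightness on which a difference of 1 is a doubling. Such values allow one gene to be compared between arrays, but not one gene with another. Irak1bp1 itself read 8.19, 8.21, 7.85 and 8.12 on the untreated littermate arrays and 5.32, 5.16, 5.62 and 5.35 on the untreated SIMPL-/- arrays, and 7.65, 7.98, 8.03 and 7.98 against 5.26, 5.53, 5.08 and 5.60 after TNFα. Every array thus lay on the side of its genotype label, with differences of −2.73 and −2.54 (adjusted p = 2.15e-12 and 4.62e-12 from limma). Whether this probe set lies in the deleted part was not examined. Across genes, Pearson's r between arrays of the same group was never under 0.995. Of 13 fibroblast markers, 8 were lower (61.5%) and 3 higher (23.1%) in untreated SIMPL-/- cells, where 17.6% of all genes were lower and 23.3% higher. The mean level of these markers on an array was 11.93 to 12.04 in untreated littermate and 11.72 to 11.77 in untreated SIMPL-/- MEFs.

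Markers of several other cell types differed with genotype, and these values belong beside every genotype difference below. Among all genes tested, 23.3% were higher and 17.6% lower in untreated SIMPL-/- cells, and 17.8% and 18.4% in treated ones. All 25 myeloid markers were lower in SIMPL-/- cells, untreated and treated (median difference −2.31 and −2.34). Their mean level was 9.41 to 9.78 on untreated and 9.50 to 9.94 on treated littermate arrays, against 7.36 to 7.51 and 7.40 to 7.50 on the SIMPL-/- arrays. Of 7 adipocyte markers, 7 were higher in untreated and 6 in treated SIMPL-/- cells, with a mean level of 6.87 to 6.97 in untreated littermate and 8.24 to 8.33 in untreated SIMPL-/- cells. Of 8 epithelial markers, 6 were higher in untreated and 4 in treated SIMPL-/- cells (6.46 to 6.61 against 7.38 to 7.71, untreated). Of 8 endothelial markers 3 were higher, with none lower in untreated and 1 lower in treated cells, while 2 of 6 muscle markers were higher in untreated cells (up to 0.89). Of 7 neural markers 2 were higher and 2 lower there (down to −0.94), of 6 proliferation markers 1 was higher and 2 lower, and of 6 chondrocyte and osteoblast markers 1 was higher in untreated and 2 in treated cells. Called in either direction in untreated cells were 37.5% of the endothelial, 33.3% of the muscle and 16.7% of the chondrocyte and osteoblast markers. These shares were under the 40.9% of all genes called there, while the neural (57.1%) and proliferation (50%) shares were above it. The scale has no true 0 and no detection calls, so absence of a marker cannot be read from it. The part of these cells in the Hox differences was not tested. In bulk RNA, fewer cells of a type and less RNA per cell cannot be told apart, and as no source gives a batch, a batch that followed genotype could not be told apart from it.

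In untreated cells, the Hox genes separated by cluster. Of 18 HoxB and HoxC genes 16 were higher in SIMPL-/- MEFs, while 6 of 9 posterior genes of HoxA and HoxD were lower, Hoxd13 by 4.94-fold. Of the 37 genes, 21 were higher (56.8%) and 7 lower (18.9%) at an adjusted p under 0.05, where 23.3% of all genes tested were higher and 17.6% lower. The share of Hox genes that were higher was thus above the background, and the share that were lower was near it. The median Hox difference was 0.22, against 0.07 over all genes, and the median size of a difference without its sign was 0.28 against 0.16. All SIMPL-/- arrays lay above all littermate arrays for 20 Hox genes, where 22.1% of all genes did so, and below them for 6, where 17.5% did so. At the thresholds of the study, a fold over 1.5 and an unadjusted p under 0.001, the 4 genes Hoxb2, Hoxb9, Hoxc9 and Hoxc10 were higher and the 3 genes Hoxd13, Hoxd10 and Hoxa13 lower, where 2.22% of all genes were higher and 4.7% lower.

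**Figure D1:**
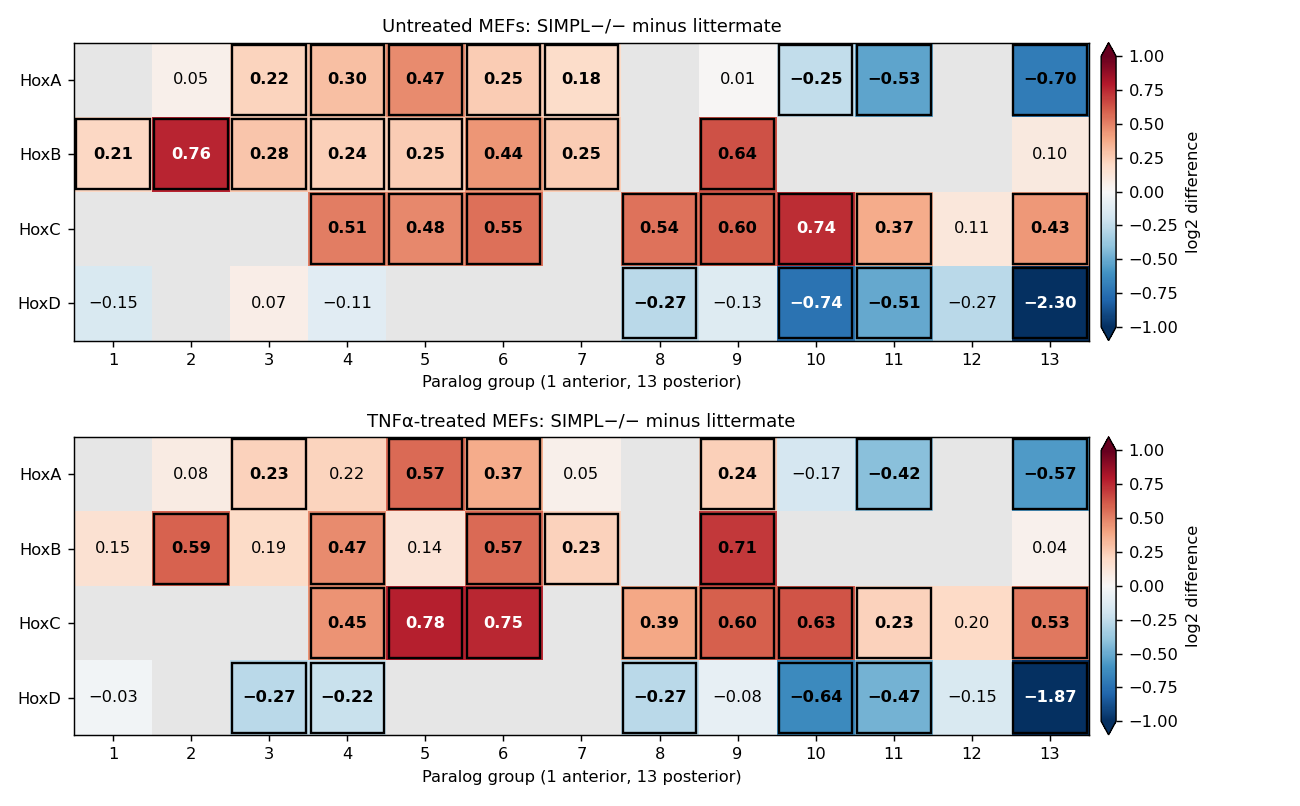
Difference in log2 RMA value between SIMPL-/- and littermate MEFs for each measured Hox gene, with clusters as lines and paralog groups from 1 (anterior) to 13 (posterior) as columns, for untreated cells (top) and TNFα treated cells (bottom); framed bold values had an adjusted p under 0.05, grey fields are genes not measured here or absent from the cluster, and colours stop at 1 and −1. Red runs through HoxB and HoxC and the anterior and central part of HoxA, and blue through most of HoxD and the posterior end of HoxA, with Hoxd13 at −2.30 and −1.87.

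By cluster, 5 of 10 HoxA genes were higher and 3 lower, 8 of 9 HoxB genes were higher and none lower, 8 of 9 HoxC genes were higher and none lower, and none of 9 HoxD genes was higher and 4 were lower. HoxA held both directions: all 4 of its central genes were higher (0.18 to 0.47), and 3 of its 4 posterior genes were lower (−0.25 to −0.70). Over the clusters, 4 of 7 anterior genes were higher and none lower, 12 of 14 central genes were higher and 1 lower, and 5 of 16 posterior genes were higher and 6 lower. Taking the posterior HoxA and HoxD genes alone, 6 of 9 were lower and none higher, with a median difference of −0.51, and for the 18 HoxB and HoxC genes 16 were higher and none lower, with a median of 0.43. These groupings were made with the pattern known and describe it. The largest rises and falls given array by array below were chosen among called genes whose untreated groups did not overlap. Their lack of overlap in untreated cells thus follows from the choice.

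Hoxd13, which with Hoxa13 patterns the digits and the genital tubercle, showed the largest difference of the family. Untreated littermate arrays read 8.57, 8.90, 8.84 and 8.48, and untreated SIMPL-/- arrays 6.54, 6.26, 6.41 and 6.36. The groups were far apart, with means of 8.70 ± 0.20 and 6.39 ± 0.12 (SD, n = 4) and a difference of −2.30 (95% interval −2.59 to −2.01, adjusted p = 1.59e-10 from limma). Hoxa13, its paralog, read 7.35, 7.86, 7.19 and 7.51 in littermate and 6.70, 6.86, 6.75 and 6.79 in SIMPL-/- cells. It was 1.63-fold lower (−0.70, interval −0.97 to −0.44, adjusted p = 0.000199), and the littermate arrays were the more spread out (SD 0.28 against 0.07).

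The other posterior HoxA and HoxD genes that were lower are known for patterning the long bones of the limbs and the lumbosacral spine. Hoxd10 gave 7.43, 7.47, 7.54 and 7.21 in littermate and 6.71, 6.75, 6.87 and 6.37 in SIMPL-/- MEFs (−0.74, SE 0.11, adjusted p = 1.73e-05). For Hoxa11, which with Hoxd11 shapes the forearm bones, the levels were 7.39, 7.54, 7.56 and 7.33 against 6.79, 6.85, 6.99 and 7.05 (−0.53, SE 0.09, adjusted p = 5.88e-05). Hoxd11 had 7.73, 8.13, 7.85 and 7.77 against 7.43, 7.19, 7.31 and 7.52 (−0.51, SE 0.10, adjusted p = 0.000746). None of these groups overlapped. Hoxd8, a central gene, gave 8.45, 8.67, 8.36 and 8.51 against 8.15, 8.22, 8.31 and 8.21 (−0.27, SE 0.07, adjusted p = 0.00687), and its closest arrays were 8.36 and 8.31. Hoxa10 was lower by the same test (−0.25, adjusted p = 0.00638), with 7.62 on one littermate array and 7.63 on one SIMPL-/- array, so its groups overlapped.

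On the other side stood Hoxb2, which acts in the hindbrain and was the Hox gene with the largest rise. It read 7.07, 7.07, 7.10 and 6.98 in untreated littermate and 7.82, 7.69, 7.94 and 7.81 in untreated SIMPL-/- cells, 1.69-fold higher (0.76, SE 0.07, adjusted p = 2.64e-08). Hoxb9, a gene of the thorax and the last trunk member of its cluster before the distant Hoxb13, gave 8.41, 8.41, 8.48 and 8.50 against 9.05, 9.08, 9.17 and 9.05 (0.64, SE 0.06, adjusted p = 6.67e-08). Both genes had a gap between the groups that was wider than the range within either. The other 6 HoxB genes that were higher, Hoxb1, Hoxb3, Hoxb4, Hoxb5, Hoxb6 and Hoxb7, moved by 0.21 to 0.44, and only Hoxb4 among them had overlapping groups.

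HoxC genes, which pattern the trunk from neck to tail, were higher along nearly the whole cluster. Hoxc10, a lumbar gene, read 7.22, 7.32, 7.28 and 7.20 in littermate and 8.15, 7.93, 8.05 and 7.86 in SIMPL-/- MEFs, 1.67-fold higher (0.74, SE 0.07, adjusted p = 4.89e-08). Hoxc9 gave 7.52, 7.52, 7.70 and 7.50 against 8.18, 8.11, 8.22 and 8.14 (0.60, SE 0.08, adjusted p = 4.15e-06). Neither gene had overlapping groups.

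Hoxc6, known for the border of neck and thorax, had 7.90, 7.90, 7.91 and 7.91 in littermate and 8.42, 8.36, 8.50 and 8.53 in SIMPL-/- cells (0.55, SE 0.06, adjusted p = 1.51e-06). Hoxc8, a thoracic gene, had 8.84, 8.94, 8.93 and 8.79 against 9.37, 9.39, 9.47 and 9.44 (0.54, SE 0.07, adjusted p = 2.35e-06). The neck genes followed. Hoxc4 gave 7.33, 6.98, 7.14 and 6.97 against 7.61, 7.72, 7.65 and 7.50 (0.51, SE 0.09, adjusted p = 0.000111). Hoxc5 gave 6.94, 6.94, 6.94 and 6.89 against 7.63, 7.41, 7.42 and 7.15 (0.48, SE 0.11, adjusted p = 0.00148). In each of these 4 genes the lowest SIMPL-/- array stood above the highest littermate array. At the posterior end of the cluster Hoxc11 (0.37) and Hoxc13 (0.43), the latter a gene of hair and nails, were called higher as well. Their untreated littermate means of 5.71 and 5.62 lay under 5.83, the level that 95% of 1027 olfactory receptor genes did not exceed, so both were called against a group in the range of dim genes and the size of their differences cannot be read. Without them, the called HoxC genes were Hoxc4, Hoxc5, Hoxc6, Hoxc8, Hoxc9 and Hoxc10.

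**Figure D2:**
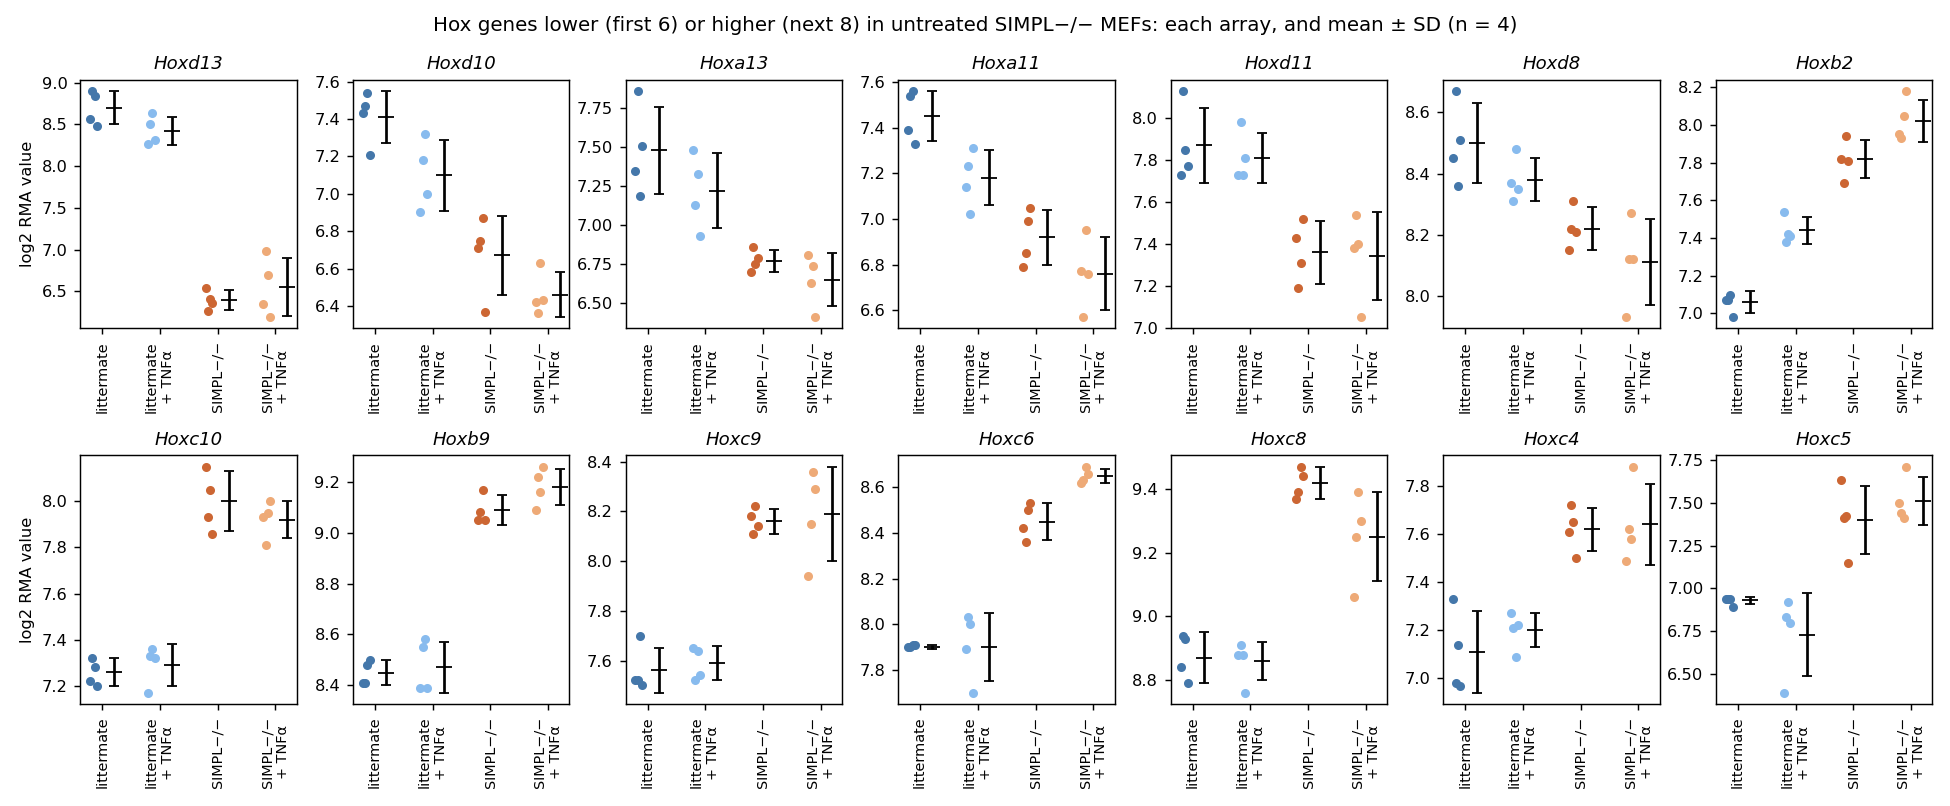
Log2 RMA value of each array (points) with mean ± SD (bars, n = 4 arrays) for the 6 lower and 8 higher Hox genes whose values are given one by one, in littermate MEFs (blue, dark untreated, light TNFα treated) and SIMPL-/- MEFs (orange, dark untreated, light treated); each panel has its own axis, which does not start at 0. The genes were chosen among called genes whose untreated genotypes do not overlap, so the lack of overlap in all 14 panels follows from the choice. The gap is widest for Hoxd13 (8.48 to 8.90 against 6.26 to 6.54).

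The 9 genes that did not pass the test included 5 of HoxD. The smallest difference of each cluster was 0.01 for Hoxa9, 0.10 for Hoxb13, 0.11 for Hoxc12 and 0.07 for Hoxd3. Hoxa9, a gene of the lumbar region, read 7.67, 7.72, 7.65 and 7.66 in littermate and 7.68, 7.69, 7.76 and 7.60 in SIMPL-/- cells, so its groups lay on top of each other (interval of the difference −0.15 to 0.16, adjusted p = 0.938). Hoxd3, a neck gene, had 6.68, 6.74, 6.62 and 6.78 against 6.64, 6.73, 6.95 and 6.78. Hoxb13 had 5.85, 5.86, 5.78 and 5.89 against 5.95, 5.84, 6.05 and 5.93, and Hoxc12 5.72, 6.09, 5.84 and 5.47 against 5.99, 5.84, 5.93 and 5.82. Over all 16 arrays, Hoxc12 was the only member whose mean was at or under the olfactory level of 5.83. The remaining 5, Hoxa2, Hoxd1, Hoxd4, Hoxd9 and Hoxd12, had differences between −0.27 and 0.05.

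Paralogs at the same place in different clusters shared a direction in some groups and not in others. All measured genes of group 5 (0.25 to 0.48), group 6 (0.25 to 0.55) and group 7 (0.18 and 0.25) were called higher. In paralog group 13 the differences ran from −2.30 (Hoxd13) to 0.43 (Hoxc13), a spread of 2.73, and in group 10 from −0.74 (Hoxd10) to 0.74 (Hoxc10), a spread of 1.48. In the remaining groups the spread lay between 0.21 (group 3) and 0.91 (group 11). The upper ends of groups 11, 12 and 13 were Hoxc11, Hoxc12 and Hoxc13, whose untreated littermate means lay in the dim range. The spreads of these groups can therefore not be read as sizes. Within a cluster, Spearman's rho between paralog number and difference in untreated cells was −0.73 over the 10 HoxA genes and −0.73 over the 9 HoxD genes. It was −0.40 over the 9 HoxC genes and −0.08 over the 9 HoxB genes. In treated cells it was −0.59 for HoxA, −0.53 for HoxD, −0.47 for HoxC and −0.03 for HoxB. The genes of a cluster are neighbours measured on the same arrays, so these values describe the order and are not tests. Hox transcripts of one cluster can overlap, and how far a probe set reads a neighbour's transcript was not examined.

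The sequences just before the starts of 4 members are shown as examples from both sides of the pattern: Hoxd13 and Hoxa13, the lower genes of group 13, and Hoxa5 and Hoxc4, 2 central genes that were higher in SIMPL-/- cells. Each is the 250 bases before the annotated start, 5′ to 3′ on the gene's strand, from RefSeq on GRCm38.p6. Capitals mark matches, on either strand, to the TATA box (TATAAA), the CCAAT box, the GC box of Sp1 proteins (GGGCGG), the repeat unit of retinoid receptor sites (AGGTCA), a site bound jointly by Pbx and Hox proteins (TGATNNAT) and the κB motif of NF-κB. They lie at chr2:74667975-74668224 (Hoxd13, plus strand), chr6:52260881-52261130 (Hoxa13, minus), chr6:52204588-52204837 (Hoxa5, minus) and chr15:103034145-103034394 (Hoxc4, plus).
Hoxd13: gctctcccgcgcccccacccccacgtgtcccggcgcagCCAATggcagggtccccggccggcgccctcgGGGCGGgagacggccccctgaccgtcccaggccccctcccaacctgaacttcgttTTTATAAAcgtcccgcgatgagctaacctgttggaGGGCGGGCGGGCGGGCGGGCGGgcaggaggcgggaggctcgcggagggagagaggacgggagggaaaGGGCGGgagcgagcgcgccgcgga
Hoxa13: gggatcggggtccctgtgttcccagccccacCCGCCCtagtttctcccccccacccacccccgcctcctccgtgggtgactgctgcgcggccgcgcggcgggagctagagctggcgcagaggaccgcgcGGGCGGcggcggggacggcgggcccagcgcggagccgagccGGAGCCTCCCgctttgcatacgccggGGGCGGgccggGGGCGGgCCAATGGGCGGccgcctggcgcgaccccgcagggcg
Hoxa5: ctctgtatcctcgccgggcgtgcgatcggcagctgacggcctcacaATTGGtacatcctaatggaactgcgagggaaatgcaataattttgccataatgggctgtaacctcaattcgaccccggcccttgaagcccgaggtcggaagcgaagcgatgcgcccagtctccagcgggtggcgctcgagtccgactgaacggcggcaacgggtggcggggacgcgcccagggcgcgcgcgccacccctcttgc
Hoxc4: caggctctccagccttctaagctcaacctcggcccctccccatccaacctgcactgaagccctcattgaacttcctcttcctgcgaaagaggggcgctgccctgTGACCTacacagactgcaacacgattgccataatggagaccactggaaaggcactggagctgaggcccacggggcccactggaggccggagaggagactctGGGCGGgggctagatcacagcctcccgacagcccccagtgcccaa

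The promoters of both group 13 genes were rich in G and C (74.4% for Hoxd13 and 80% for Hoxa13), with repeated GGGCGG, some matches of which overlap each other in Hoxd13. Hoxd13 held TATAAA on both strands in one overlapping stretch, and Hoxa13 held the only κB match among the Hox promoters. Hoxa5 held 1 CCAAT, and Hoxc4 held 1 GGGCGG and 1 AGGTCA. Of the 37 genes, 21 had a promoter entry, with 23 promoters among them. Their median GC content was 59.2%, against 52.4% over all 32851 promoters of this length, and the ratio of observed to expected CpG was 0.69 against 0.37. CCAAT was in 56.5% of the Hox promoters and 33.8% of all, GGGCGG in 39.1% and 32.7%, AGGTCA in 26.1% and 14%, TATAAA in 13% and 12.4%, TGATNNAT in 13% and 7.68%, and the κB motif in 4.35% and 7.25%. Median GC was 62% in the 7 promoters of higher genes and 59.2% in the 9 of lower genes. A match of letters is not a binding site, and many of these promoters belong to genes of one cluster.

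The genotype difference was measured again on the other 8 arrays, those of TNFα treated cells. With 4 derivations of each genotype for 8 arrays, treated and untreated arrays appear to come from the same embryos, so this is not a measurement on new animals. There 17 Hox genes were higher (45.9%) and 8 lower (21.6%), where 17.8% of all genes were higher and 18.4% lower. The genotypes did not overlap for 15 higher genes, where 16.1% of all genes did so, and for 9 lower genes, where 17.2% did so. At the study's thresholds 6 were higher and 2 lower, where 2.63% and 5.39% of all genes passed. By cluster, 4 HoxA genes were higher and 2 lower, 5 HoxB and 8 HoxC genes were higher and none lower, and none of HoxD was higher and 6 were lower. Of 7 anterior genes 2 were higher and 1 lower, and of 14 central genes 9 were higher and 2 lower. Among 16 posterior genes 6 were higher and 5 lower. With arrays centred on their medians or quantile normalized, 8 HoxB genes were higher in treated cells in place of 5, and 22 Hox genes in all in place of 17. The median difference over all genes there was 0.031 as deposited, 0.102 after median centring and 0.032 after quantile normalization. The share of all genes called under these scalings is not given here, so the added calls cannot be read as particular to Hox genes. Called in the same direction on both sets of arrays were 16 higher genes (43.2% of Hox genes, 12.1% of all genes) and 6 lower ones (16.2% of Hox genes, 14.3% of all), and none in opposite directions. The sign was shared by 36 of 37 genes, and Pearson's r across the genes, which are not independent, was 0.97, or 0.94 without Hoxd13. The exception in sign was Hoxd3, at 0.07 and −0.27.

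**Figure D3:**
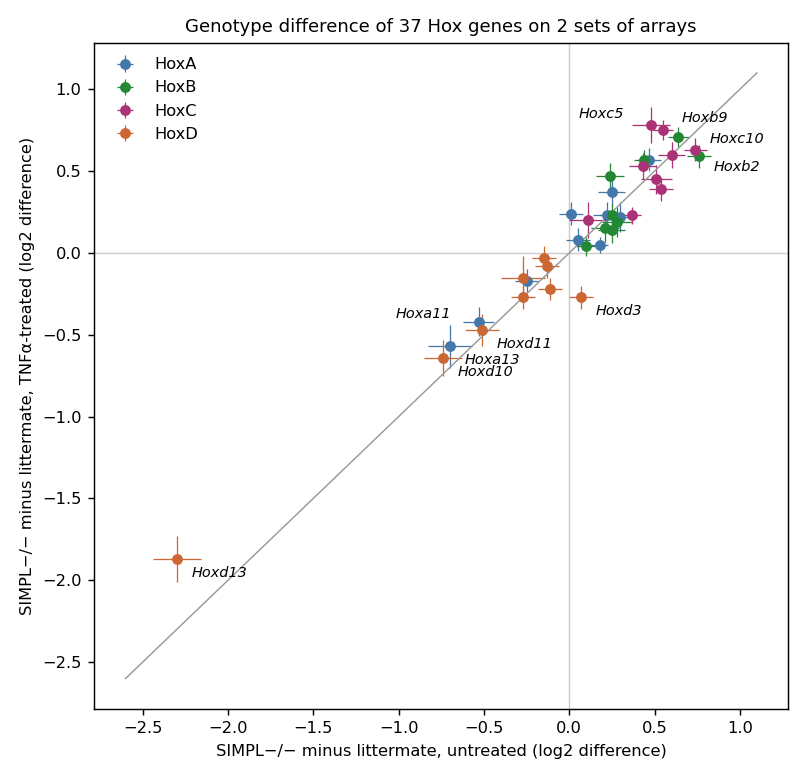
SIMPL-/- minus littermate difference (log2) of each of 37 Hox genes in untreated cells (x axis) and in TNFα treated cells (y axis), coloured by cluster, with bars of ± 1 SE and a line where both are equal; the axes share no array. The points follow the line, with Hoxd13 far to the lower left (−2.30 and −1.87) and Hoxd3 alone across the 0 line (0.07 and −0.27).

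After TNFα, Hoxd13 read 8.26, 8.50, 8.64 and 8.31 in littermate and 6.35, 6.98, 6.69 and 6.19 in SIMPL-/- MEFs, again with no overlap (−1.87, SE 0.14, adjusted p = 2.4e-09). Hoxc5 had the largest rise of the treated cells, with 6.39, 6.83, 6.92 and 6.80 against 7.50, 7.44, 7.41 and 7.71 (0.78, SE 0.11, adjusted p = 7.69e-06). Hoxc6 gave 7.89, 8.03, 8.0 and 7.70 against 8.62, 8.63, 8.69 and 8.66 (0.75, SE 0.06, adjusted p = 2.13e-08). The leading genes of the untreated comparison therefore stood on the same side.

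Hoxb9 gave 8.39, 8.55, 8.58 and 8.39 against 9.09, 9.22, 9.16 and 9.26 (0.71, SE 0.06, adjusted p = 1.48e-08). Hoxc10 gave 7.17, 7.33, 7.36 and 7.32 against 7.93, 7.81, 7.95 and 8.0 (0.63, SE 0.07, adjusted p = 3.91e-07). Of the lower genes, Hoxd10 had 6.90, 7.18, 7.32 and 7.0 against 6.42, 6.36, 6.63 and 6.43 (−0.64, SE 0.11, adjusted p = 7.34e-05). These were all free of overlap. Hoxa13 (−0.57), Hoxd11 (−0.47), Hoxa11 (−0.42) and Hoxd8 (−0.27) were lower, and Hoxc9 (0.60), Hoxc4 (0.45) and Hoxc8 (0.39) higher, each with no overlap.

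Some genes passed the test on one set of arrays and not on the other. Hoxa4, Hoxa7, Hoxb1, Hoxb3 and Hoxb5 were called higher and Hoxa10 lower in untreated cells and missed the threshold in treated cells (0.22, 0.05, 0.15, 0.19, 0.14 and −0.17, in this order). In treated cells Hoxa4, Hoxb1, Hoxb3 and Hoxb5 did pass with either other scaling and Hoxa7 with quantile normalization, so these misses depend on the scaling. Hoxa9 was called higher and Hoxd3 and Hoxd4 lower (0.24, −0.27 and −0.22) in treated cells and were not called in untreated cells. For none of these 9 genes did the genotype difference itself change with treatment at an adjusted p under 0.05, so a change with TNFα was not shown.

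In the time given few Hox genes were called after TNFα, as few of all genes were. The Hox counts were near the shares of all genes and do not set the family apart. In littermate MEFs 2 of 37 were higher after TNFα (5.41%) and 1 lower (2.7%), where 2.7% of all genes were higher and 2.45% lower. None passed the study's thresholds, which 0.868% of all genes passed upward and 0.135% downward. In SIMPL-/- MEFs none was called by limma, where 1.73% of all genes were higher and 1.39% lower. There 6 Hox genes had an unadjusted p under 0.05, and the methods' t-test with the same adjustment called none as well. The Hox differences after TNFα lay between −0.32 and 0.38 in littermate and between −0.24 and 0.21 in SIMPL-/- cells.

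Hoxb2 had the largest response. The littermate arrays went from 7.07, 7.07, 7.10 and 6.98 untreated to 7.54, 7.38, 7.42 and 7.41 treated (0.38, interval 0.24 to 0.52, adjusted p = 0.00109), with no overlap. On the SIMPL-/- arrays it stood at 7.82, 7.69, 7.94 and 7.81 untreated and 7.95, 7.93, 8.05 and 8.18 treated (0.21, interval 0.07 to 0.35, adjusted p = 0.109). The responses differed by −0.18 (interval −0.37 to 0.02, adjusted p = 0.447), so neither a difference nor likeness of the responses was shown.

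Hoxc11 had 5.65, 5.79, 5.67 and 5.74 in untreated and 5.93, 5.94, 5.95 and 5.96 in treated littermate cells (0.23, adjusted p = 0.0114), and 6.09, 6.17, 6.07 and 6.00 against 6.14, 6.21, 6.12 and 6.24 in SIMPL-/- cells (0.09, adjusted p = 0.436). Its littermate groups did not overlap, while the SIMPL-/- groups did, and its untreated littermate level was in the dim range. Hoxa9 had 7.67, 7.72, 7.65 and 7.66 untreated and 7.46, 7.45, 7.38 and 7.14 treated in littermate cells, a lower level on every treated array (−0.32, adjusted p = 0.0161). Its SIMPL-/- arrays read 7.68, 7.69, 7.76 and 7.60 untreated and 7.41, 7.66, 7.70 and 7.63 treated (−0.08, adjusted p = 0.653). The call for Hoxa9 was lost without untreated littermate array 2 (adjusted p = 0.0507) or treated littermate array 4 (0.0582), and that for Hoxc11 without untreated littermate array 1 (0.0503).

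Whether the response to TNFα depended on SIMPL was tested as the difference between the responses. None of the 37 Hox genes was called by limma. Of all genes, 0.0953% were called with a positive and 0.441% with a negative difference, taken as the SIMPL-/- response minus the littermate response. Estimates ran from −0.34 for Hoxd3 to 0.43 for Hoxd13, 4 had an unadjusted p under 0.05, the smallest adjusted p was 0.171, and an unmoderated test called none either. Hoxd3 went from 6.68, 6.74, 6.62 and 6.78 to 6.97, 6.70, 6.78 and 6.80 in littermate and from 6.64, 6.73, 6.95 and 6.78 to 6.65, 6.56, 6.52 and 6.42 in SIMPL-/- cells. The treated minus untreated differences were 0.11 and −0.24, neither of them called, and the interval of the difference, −0.56 to −0.13, leaves out 0 before adjustment over all genes.

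**Figure D4:**
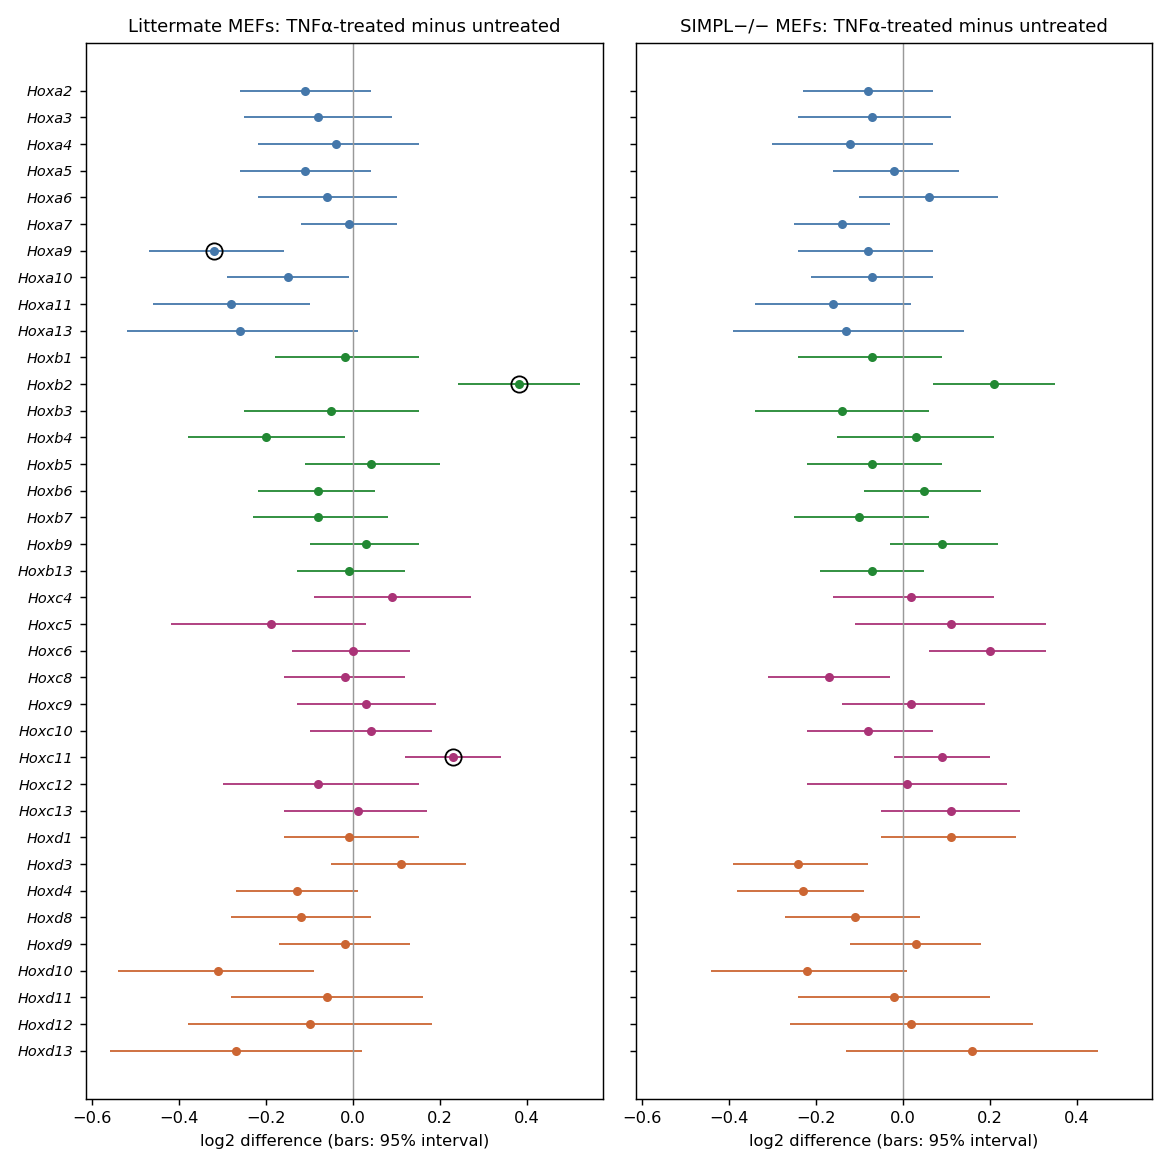
TNFα treated minus untreated log2 difference of each of 37 Hox genes in littermate (left) and SIMPL-/- MEFs (right), with bars of 95% intervals before adjustment, colours by cluster and a ring around the genes with an adjusted p under 0.05. Rings stand around Hoxb2 (0.38), Hoxc11 (0.23) and Hoxa9 (−0.32) in littermate cells, and around none in SIMPL-/- cells.

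Genes that work with Hox proteins or mark positions were read from 7 lists, which were written with earlier results of these data known. Beside their counts stand the shares of all genes, 23.3% higher and 17.6% lower in untreated and 17.8% and 18.4% in treated cells. TALE proteins (Pbx, Meis and Pknox) are homeodomain partners that bind DNA together with Hox proteins. Of 9 measured, 1 was higher and 2 lower in untreated SIMPL-/- cells (11.1% and 22.2%, the first under and the second near the shares of all genes), with a median difference of 0.04. Pbx2 gave 8.58, 8.48, 8.52 and 8.39 in littermate and 8.17, 8.0, 8.19 and 8.16 in SIMPL-/- MEFs (−0.36, adjusted p = 0.000173). Pbx3 was lower (−0.29, adjusted p = 0.000443) and Pknox1 higher (0.23, adjusted p = 0.0126), and no group overlapped. In treated cells Pbx2 alone was called (−0.27). After TNFα, 1 of the 9 was higher and 2 lower in each genotype (11.1% and 22.2%). Of all genes, 2.7% were higher and 2.45% lower in littermate and 1.73% and 1.39% in SIMPL-/- cells. The differences ran from −0.36 to 0.65 in littermate and from −0.31 to 0.42 in SIMPL-/- cells, so the largest was a rise. Pbx2 was among the lower genes in littermate (−0.36, adjusted p = 0.00176) and SIMPL-/- cells (−0.26, adjusted p = 0.0308).

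Polycomb proteins keep Hox genes silent outside their domain and trithorax proteins keep them active inside it. Of 26 such genes, 1 was higher and 9 lower in untreated SIMPL-/- cells (3.85% and 34.6%), with a median of −0.05. Rybp, a subunit of a variant Polycomb repressive complex, read 9.10, 8.82, 8.87 and 9.10 against 7.98, 8.56, 8.36 and 8.20 (−0.69, adjusted p = 4.19e-05). Rnf2, the ubiquitin ligase of that complex family, was lower (−0.44, adjusted p = 3.27e-05) and Phc2, another subunit, higher (0.36, adjusted p = 0.000537). In treated cells 7 were higher and 9 lower (26.9% and 34.6%).

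Retinoic acid switches on anterior Hox genes, and Cdx proteins act on the central ones. Of 23 genes of these routes, 7 were higher and 5 lower in untreated SIMPL-/- cells (30.4% and 21.7%, both near the shares of all genes), with a median of 0.14. Crabp2, which carries retinoic acid to its receptors, read 10.17, 10.23, 10.20 and 10.19 in littermate and 8.01, 7.98, 8.19 and 8.02 in SIMPL-/- MEFs, 4.44-fold lower (−2.15, SE 0.06, adjusted p = 1.48e-14). Aldh1a3, an enzyme that makes retinoic acid, read 7.05, 7.13, 7.21 and 7.11 against 8.72, 8.62, 8.66 and 8.63, 2.89-fold higher (1.53, SE 0.08, adjusted p = 5.11e-11). These were the largest fall and the largest rise of the list. Cyp26a1, which breaks retinoic acid down, was called higher (0.67, adjusted p = 7.5e-07) with both untreated groups in the dim range, and the receptor Rarg was lower (−0.38, adjusted p = 3.72e-05). In treated cells 4 were higher and 5 lower (17.4% and 21.7%).

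Among 25 limb factors, 4 were higher and 12 lower in untreated SIMPL-/- cells (16% and 48%), with a median of −0.11, and 5 and 8 in treated cells (20% and 32%). The share of lower genes was above that of all genes, and the share of higher genes was near or under it. Tbx4, a hindlimb factor, read 8.13, 8.29, 8.10 and 8.09 against 7.04, 6.91, 7.0 and 7.13 (−1.13, SE 0.07, adjusted p = 2.79e-10). Msx1, a homeobox gene of limb and head mesenchyme, was lower as well (−0.88, adjusted p = 3.07e-07). Fgf10, the ligand that drives limb bud outgrowth, read 6.40, 6.58, 6.45 and 6.48 against 7.18, 7.38, 7.41 and 7.45 (0.88, SE 0.09, adjusted p = 1.47e-07), and Hand2, a gene of the posterior limb bud, was also higher (0.45, adjusted p = 5.72e-05). The limb genes thus held strong differences in both directions.

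Of 26 trunk and body wall factors, 6 were higher and 9 lower (23.1% and 34.6%, the first near the share of all genes), with a median of −0.02 and the same counts in treated cells. Pax3, of the dermomyotome and neural crest, was lower (−1.15, adjusted p = 1.97e-10), as was Osr2 (−0.98, adjusted p = 1.81e-09), a gene of palate and joints. Wt1, of the lining of the body cavity, was higher (0.67, adjusted p = 2.28e-08), as was Foxc2 (0.39, adjusted p = 0.00242), of the paraxial mesoderm. Of 18 head and brain factors, 6 were higher and 6 lower in untreated (33.3% each, median 0.09) and 1 and 5 in treated cells (5.56% and 27.8%). Alx1, a gene of the face, was lower (−1.09, adjusted p = 3.04e-06), as was Tfap2b (−0.78, adjusted p = 1.4e-06), of the neural crest. Dlx2 (0.50, adjusted p = 0.00203) and Pax6 (0.33, adjusted p = 0.00131), factors of jaw and forebrain and of the eye, were higher. In none of these 8 genes did the untreated groups overlap, though Pax6 lay in the dim range in both genotypes and Tfap2b in SIMPL-/- cells.

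**Figure D5:**
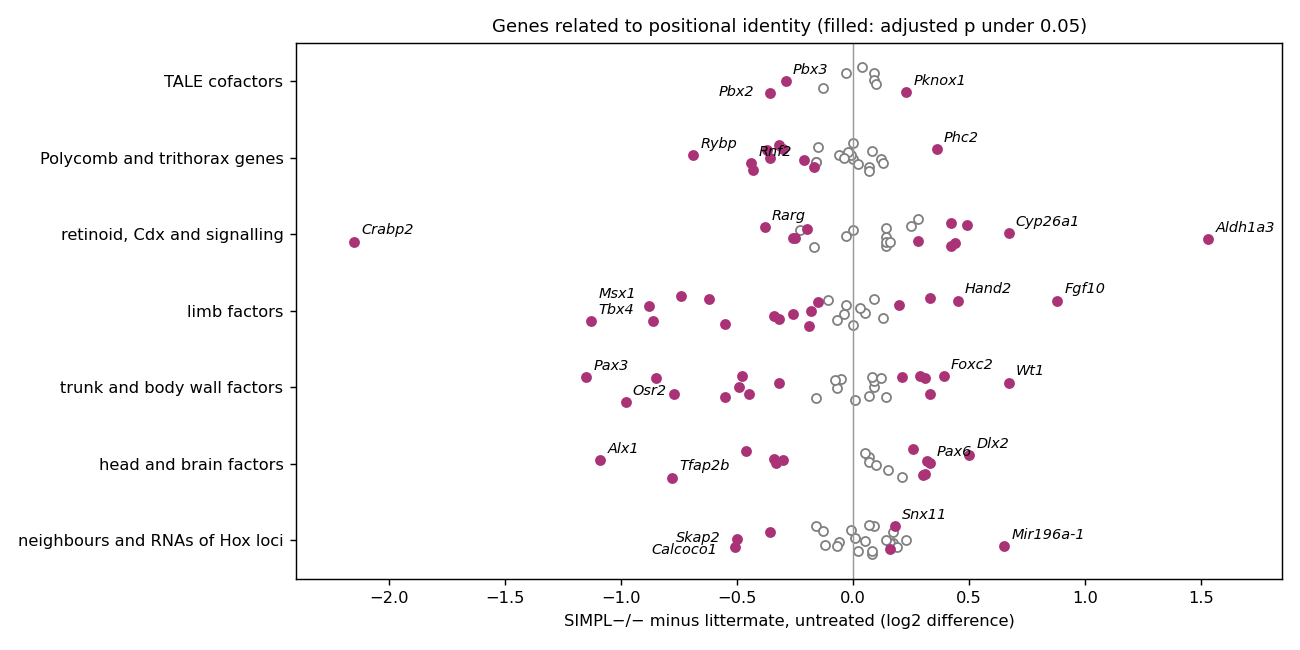
SIMPL-/- minus littermate difference (log2, untreated cells) of each measured gene of 7 lists related to positional identity, with filled points for an adjusted p under 0.05, open points for the others, and names at the genes described in the text; the height of a point within its list has no meaning. Filled points lie on both sides of 0 in every list, from Crabp2 at −2.15 to Aldh1a3 at 1.53.

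Of 25 measured neighbours and noncoding RNAs of the Hox loci, 3 were higher and 3 lower in untreated SIMPL-/- cells (12% each, median 0.07), and 3 and 5 in treated cells. The shares were under those of all genes in untreated cells (23.3% and 17.6%). Calcoco1, beside Hoxc13, read 9.49, 9.46, 9.51 and 9.26 in littermate and 9.0, 8.85, 8.90 and 8.95 in SIMPL-/- MEFs (−0.51, adjusted p = 8.6e-06), a difference opposite in sign to that of Hoxc13. Skap2, next to the anterior end of HoxA, was lower (−0.50, adjusted p = 0.000168), and Snx11, near the anterior end of HoxB, higher (0.18, adjusted p = 0.018). Evx2, beside Hoxd13, was not called (0.09, adjusted p = 0.411).

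MicroRNAs lie inside the clusters too, and the miR-196a family is known to act on Hox transcripts. Their mature forms are shown to tell the loci apart, from RefSeq, 5′ to 3′, with the seed (bases 2 to 8) in capitals. They fall into 2 seed families. The family of miR-196a and miR-196b has 2 loci for one mature form, in HoxB (Mir196a-1, chr11:96265187-96265208, plus strand) and in HoxC (Mir196a-2, chr15:102973365-102973386, plus), and 1 in HoxA (Mir196b, chr6:52230129-52230150, minus). The family of miR-10a and miR-10b has 1 locus in HoxB (Mir10a, chr11:96317186-96317208, plus) and 1 in HoxD (Mir10b, chr2:74726074-74726096, plus), all on GRCm38.p6.
miR-10a-5p: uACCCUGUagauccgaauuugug
miR-10b-5p: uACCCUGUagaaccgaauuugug
miR-196a-5p: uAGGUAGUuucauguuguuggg
miR-196b-5p: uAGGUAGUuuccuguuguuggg

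Within each family the mature forms differ at 1 base outside the seed, counted from 1 at the 5′ end (A12C from miR-196a to miR-196b and U12A from miR-10a to miR-10b). The array reads the loci and not the mature forms, and all 5 loci had means under the olfactory level of 5.83 in every group, so no size of a difference can be read from them. Mir196a-1 gave 5.13, 4.74, 4.90 and 4.64 in littermate and 5.63, 5.51, 5.32 and 5.56 in SIMPL-/- MEFs, with no overlap, and was called higher in untreated (adjusted p = 0.000536) and treated cells (adjusted p = 0.00207). The HoxC copy of the same mature form, Mir196a-2, was not called (−0.06, adjusted p = 0.566), nor was Mir196b (−0.01, adjusted p = 0.89) or Mir10a (0.02, adjusted p = 0.854). Mir10b, in HoxD, missed the threshold in untreated cells (−0.16, adjusted p = 0.0689) and was called lower in treated cells (−0.18, adjusted p = 0.0498).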

How the data were processed

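The authors deposited log2 values made with RMA in Partek per the labels' processing notes, while the study's methods name Affymetrix Microarray Suite, and the version of Partek and RMA is not given in the sources used here. The sample titles gave the group of each array, and 0 columns of the table belonged to other samples. Of 28853 probe sets, 21789 had 1 gene symbol in GEO's platform annotation, 1621 had several and were left out, and 5443 had none listed. They gave 19938 genes, 999 of them with several probe sets, for which the brightest over all arrays was used. Each Hox gene had 1 probe set.

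In R 4.3.3 with limma 3.58.1, all 16 arrays were fitted with 4 group means, with no covariate and no filter on dim genes. Tests were two-sided, the Benjamini-Hochberg adjustment ran over all 19938 genes in each contrast, and genes were called at an adjusted p under 0.05. Intervals are 95% intervals before adjustment. The script was tested on simulated data. Alternatives were other scalings, leaving dim genes out, averaging probe sets within genes, moderation with trend and robust settings, array weights, the compared arrays alone, the methods' unpaired t-test, the study's thresholds (a fold over 1.5 and p under 0.001) and each array left out. The interaction used an unmoderated test in place of the t-test. Named were the 8 largest rises and up to 8 largest falls among called genes whose groups did not overlap, the smallest difference of each cluster, genes called in a TNFα contrast, and the 2 largest rises and 2 largest falls of each related list. Other genes are named for their place in the pattern, after their values were seen. The members, lists and alternatives were chosen with earlier results of these data known. Levels on arrays of one group had a median SD of 0.089 to 0.103, and precision is limited by having 4 arrays in a group. Sequences are RefSeq's on GRCm38.p6, and the build of the array annotation is not given in the sources used here. Motifs were counted with Python 3.11.15 on both strands, and figures were drawn with matplotlib 3.10.9.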

Additional observations from a re-analysis of the deposited data

Results flagged for a closer look

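One array stood apart from the other 3 of its group, by Dixon's ratio above its 95% critical value, in 12 of 256 groups of 4 arrays examined over the named genes and all Hox genes. This is 4.69%, near the share that chance gives at this limit. Among Hox genes, 7 such arrays were found. Hoxb13 read 5.70 on treated littermate array 3 against 5.87 to 5.89 on the others (ratio 0.894). Hoxc5 read 6.89 on untreated littermate array 4 with 6.94 on the other 3 (ratio 0.898), and Hoxc9 read 7.70 on untreated littermate array 3 against 7.50 to 7.52 (ratio 0.908). Hoxd1 read 6.48 on treated littermate array 1 against 6.36 to 6.38 (ratio 0.843) and 6.00 on untreated SIMPL-/- array 2 against 6.32 to 6.36 (ratio 0.876). Hoxd12 read 5.73 on treated littermate array 2 against 6.17 to 6.25 (ratio 0.849) and 6.38 on untreated SIMPL-/- array 3 against 5.70 to 5.78 (ratio 0.885).

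Irak1bp1 read 7.65 on treated littermate array 1 against 7.98 to 8.03 (ratio 0.881), far from the SIMPL-/- arrays. Pbx3 read 9.09 on treated SIMPL-/- array 4 against 8.99 to 9.0 (ratio 0.883), and Skap2 read 8.52 on treated littermate array 4 against 8.75 to 8.78 (ratio 0.885). Crabp2 read 9.94 on treated littermate array 1 against 10.11 to 10.14 (ratio 0.845) and 8.19 on untreated SIMPL-/- array 3 against 7.98 to 8.02 (ratio 0.841).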

How the results depend on the processing

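No called Hox gene changed direction under any of 24 alternatives at the same threshold. Several of these could not change a direction, such as leaving out an array outside the comparison, or averaging probe sets where each Hox gene has 1. Of 28 calls in untreated cells 22 were kept under all alternatives, as were 20 of 25 in treated cells and 1 of 3, Hoxb2, for TNFα in littermate cells. Lost somewhere in untreated cells were Hoxa3 (adjusted p up to 0.188), Hoxa6 (0.0621), Hoxb1 (0.112), Hoxb3 (0.0715), Hoxb4 (0.0815) and Hoxb5 (0.0502), each without at least 1 array. Hoxa6 was lost without SIMPL-/- array 4, Hoxb5 without littermate array 3 and Hoxb3 without littermate array 1 or 2, and Hoxa3, Hoxb1 and Hoxb4 without any of several arrays of both genotypes. Processing mattered for some of them too. Hoxa3 was also lost with quantile normalization, with trend and robust moderation and by the methods' t-test. The t-test lost Hoxa6 as well, and quantile normalization lost Hoxb4. Lost in treated cells were Hoxa3 (up to 0.141), Hoxa9 (0.139), Hoxb7 (0.0909), Hoxd4 (0.104) and Hoxd8 (0.0516, the methods' t-test alone). Calls gained in treated cells were Hoxa4 (8 alternatives, lowest adjusted p 0.0083), Hoxb3 (4, 0.00981), Hoxa10 (3, 0.037), Hoxb1 (2, 0.02), Hoxb5 (2, 0.023), Hoxa7 (1, 0.0307) and Hoxc12 (1, 0.0435), and Hoxd1 was gained in untreated cells (1, 0.0329). With either other scaling 22 Hox genes were higher in treated cells, with 7 lower after median centring and 8 after quantile normalization. The shares of all genes called under these scalings are not given here. Without SIMPL-/- array 3, Hoxd9 and Hoxd12 were called lower in untreated cells, and Hoxd12 was called lower with quantile normalization too. Their lowest adjusted p over the alternatives was 0.0491 and 0.00573. With quantile normalization 19 Hox genes were higher and 9 lower in untreated cells, in place of 21 and 7, and 6 of the 9 HoxD genes were lower. Mir196a-1 and Rybp in treated cells and Dlx2 and Snx11 in untreated cells lost their call in at least 1 alternative.

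At the study's thresholds, which need a larger change, untreated cells had 4 higher Hox genes by limma and 4 by the methods' t-test and 3 and 1 lower, and treated cells 6 and 5 higher and 2 and 1 lower. At those thresholds 0 Hox genes were higher and 0 lower after TNFα in littermate cells by either test. At an adjusted p under 0.05, 1 Hox gene was higher after TNFα in littermate cells with quantile normalization and 1 with trend and robust moderation, while 2 were lower without dim genes and 0 by the methods' t-test. In SIMPL-/- cells 1 was higher with quantile normalization (Hoxb2, adjusted p = 0.0321) and 1 lower without dim genes (Hoxd4, 0.0329). The cause of these shifts was not tested. With 1 array left out, the higher count ran from 17 to 21 and the lower from 7 to 9 in untreated cells, and from 15 to 18 and 7 to 9 in treated cells. For TNFα in littermate cells they ran from 1 to 2 and from 0 to 1, and in SIMPL-/- cells from 0 to 0 and from 0 to 1. The difference between responses stayed at 0. A fit of the compared arrays alone does not apply to it. No paired analysis was possible because neither labels nor methods tie a treated array to an untreated one, and the replicate numbers only name the arrays.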

Other observations

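The probe set shared by Hoxb8 and Hoxb7 was in no comparison. It read 6.90, 6.84, 6.69 and 6.76 in untreated littermate, 6.60, 6.57, 6.47 and 6.79 in treated littermate, 7.19, 7.15, 6.86 and 6.76 in untreated SIMPL-/- and 7.24, 6.95, 7.0 and 6.95 in treated SIMPL-/- MEFs. The genotypes overlapped without TNFα and did not overlap with it.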
